A study of Homo sapiens with 8 samples.

Results

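A set of 10 transcripts typical of plasma cells, the antibody-secreting end stage of B cells, was followed across 8 RNA libraries of the epithelial colorectal cancer line HCT116. The 10 genes, of 40295 gene IDs in the table, were JCHAIN, IGKC, IGHA1, MZB1, IRF4, POU2AF1, TNFRSF17, SLAMF7, SDC1 and CD48. They were chosen by their measured counts, which stood high in treated knock-in library 2, untreated knock-in library 2 and both untreated wild-type libraries. In the other 4 the counts were near 0, or for SDC1 lower but well above 0. Their levels are therefore given as a description of each library, with no test, and not as an effect of line or treatment. The rule set no numeric threshold.

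The 4 groups held 2 libraries each. They were MED12 E33Q knock-in cells exposed to IFN-γ (interferon-gamma, 5 ng/ml) over 24 h, untreated (0 h) knock-in cells, wild-type HCT116 cells given the same treatment, and untreated wild-type cells. E33Q changes 1 amino acid of MED12, which belongs to the kinase module of Mediator, and was made by CRISPR-Cas9 in HCT116; 1 knock-in line was named. IFN-γ and 24 h in culture share a label and cannot be told apart. All cells were grown in McCoy's 5A medium with 10% fetal bovine serum, and total RNA was depleted of rRNA before sequencing. The labels name no cell type other than HCT116. Whether the replicates came from separate cultures is stated in the design as biological replication, without dates or batches.

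Plasma cells make and secrete one antibody each. An antibody joins 2 heavy chains to 2 light chains, the light chain being either kappa (constant region IGKC) or lambda, and secreted IgA (IGHA1, IGHA2) and IgM are linked into polymers by the joining chain JCHAIN. The plasma cell state is held by the transcription factor IRF4, POU2AF1 is a B-lineage coactivator that binds octamer-bound POU factors, and MZB1 is an endoplasmic reticulum protein that helps antibody assembly. TNFRSF17 (BCMA), SLAMF7, SDC1 (CD138) and CD48 are surface proteins, of which SDC1, the heparan sulfate proteoglycan syndecan-1, is also made by epithelial cells.

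The promoters of JCHAIN and SDC1 are shown because JCHAIN had the largest gap between the libraries and SDC1 had the most counts of the members in every library. Each run is the 250 bases before the RefSeq start site on GRCh38.p14, on the minus strand, at chr4:70666509-70666758 for JCHAIN and chr2:20225476-20225725 for SDC1. The JCHAIN window lies inside the GENCODE 29 span of the gene, which starts further upstream. Capitals mark TGCAAAT read on either strand, which is the octamer ATGCAAAT without its first base.

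JCHAIN: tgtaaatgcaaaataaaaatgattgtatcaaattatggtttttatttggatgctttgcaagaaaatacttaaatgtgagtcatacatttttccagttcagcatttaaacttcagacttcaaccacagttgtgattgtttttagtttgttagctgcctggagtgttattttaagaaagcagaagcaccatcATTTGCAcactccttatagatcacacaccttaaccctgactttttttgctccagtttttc

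SDC1: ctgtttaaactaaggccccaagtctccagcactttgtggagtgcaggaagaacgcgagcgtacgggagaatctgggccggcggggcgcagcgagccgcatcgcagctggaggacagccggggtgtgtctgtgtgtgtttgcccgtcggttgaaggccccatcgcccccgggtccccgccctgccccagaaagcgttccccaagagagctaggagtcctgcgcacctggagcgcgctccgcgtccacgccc

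The JCHAIN window had a GC content of 32.8% and 0 CpG dinucleotides, and the SDC1 window had 66.4% and 23, against medians of 58% and 11 over 27305 RefSeq promoters. Promoters were listed for 5 members, the others being MZB1 (61.2% GC, 4 CpG), IRF4 (76% GC, 28 CpG) and CD48 (43.2% GC, 4 CpG). The full octamer was in 0 of the 5 windows and in 1.66% of all promoters. The shorter TGCAAAT, searched after the octamer gave no match, was in 1 of 5, with its first base 60 bases before the JCHAIN start, and in 3.7% of all promoters. The Ets-IRF composite element, the interferon response element core and the gamma-activated sequence TTCNNNGAA were in 0 of 5 windows, and in 2.44%, 3.07% and 6.78% of all promoters. Both strands were searched, and the composite and the response core can overlap. A match is a run of letters and not a measured binding site.

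Estimated counts summed to between 20901909 and 28045842 per library. ERCC spike-ins took 0.263% of counts in each treated knock-in library and 0.138 and 0.141% in untreated knock-in libraries, against 0.228 and 0.271% in treated and 0.11 and 0.128% in untreated wild-type libraries. Neither depth nor spike-in share separated the 4 high libraries from the others. Levels are given as CPM, counts scaled by TMM-adjusted library totals, on which 3 counts equal between 0.11 and 0.167 CPM. Intervals cover counting error only. In bulk RNA, fewer cells of a type and less RNA per cell cannot be told apart.

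The 10 transcripts together stood at 81.6 and 573 CPM in treated knock-in libraries 1 and 2, at 68 and 614 CPM in untreated knock-in libraries 1 and 2, at 65.4 and 62.2 CPM in treated wild-type libraries and at 639 and 790 CPM in untreated wild-type libraries. Most of the lower values was SDC1. Without it, the other 9 summed to 2.12 and 267 CPM in treated knock-in, 1.56 and 342 CPM in untreated knock-in, 1.83 and 0.979 CPM in treated wild-type and 345 and 393 CPM in untreated wild-type libraries. The 2 libraries of each knock-in group thus lay on opposite sides of the pattern, whereas those of each wild-type group lay on the same side. As group means of the 10 transcripts, treated knock-in (327 ± 348 CPM, SD, n = 2) and untreated knock-in cells (341 ± 386 CPM) lay between treated wild-type (63.8 ± 2.22 CPM) and untreated wild-type cells (714 ± 107 CPM). In both knock-in groups the standard deviation exceeded the mean.

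**Figure D1:**
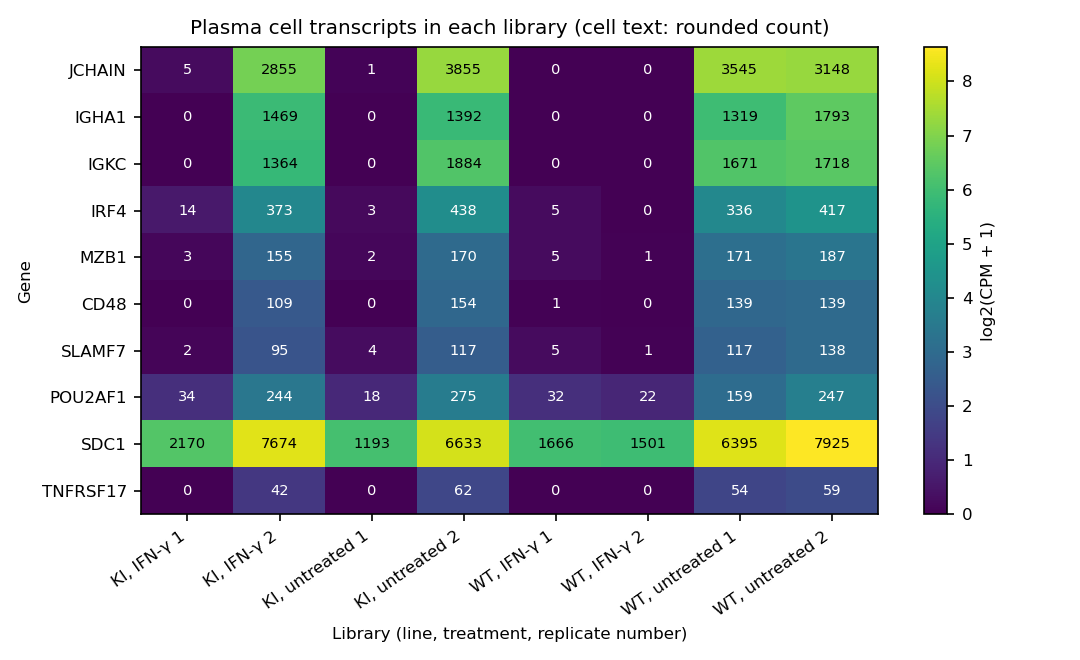
Level of each of the 10 plasma cell transcripts (rows) in each of the 8 libraries (columns), coloured by log2(CPM + 1), with the rounded count printed in each cell. JCHAIN counted 2855 to 3855 in the 4 libraries that chose the genes and 0 to 5 in the other 4, while SDC1 counted at least 1193 in every library.

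JCHAIN (ENSG00000132465, chromosome 4, 70655541 to 70681817, GRCh38), which overlaps ENAM on the opposite strand, was the most abundant of the immune-specific members by counts. It had 5 and 2855 counts in treated and 1 and 3855 in untreated knock-in libraries 1 and 2, against 0 and 0 in treated and 3545 and 3148 in untreated wild-type libraries. The corresponding levels in the 4 high libraries were 114, 158, 163 and 158 CPM, so the treated knock-in library was the lowest of them. IGKC (chromosome 2, 88857161 to 88857683), the kappa constant region, had 54.4 CPM in treated knock-in library 2, 77.3 CPM in untreated knock-in library 2 and 76.8 and 86 CPM in untreated wild-type libraries, with 0 counts in each of the other 4 libraries. IGHA1 (chromosome 14, 105703995 to 105708665), the constant region of the alpha 1 heavy chain, had 58.6, 57.1, 60.6 and 89.8 CPM in the same order, and again 0 counts elsewhere. For these 3 genes the 4 high libraries and the other 4 did not come near each other, which was the ground for choosing them. The ratios that follow describe single libraries and test nothing. Within the treated knock-in group, library 2 exceeded library 1 at least 495-fold for IGKC and at least 533-fold for IGHA1, taking 3 counts as the floor, and by a ratio of 622 for JCHAIN (95% counting interval 266 to 1917). Within the untreated knock-in group, the IGKC and IGHA1 differences were at least 463-fold and at least 342-fold.

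Per kilobase of the longest coding transcript, IGKC was above JCHAIN in all 4 libraries. IGKC had 104 CPM per kb in treated and 148 in untreated knock-in library 2, against 147 and 164 CPM per kb in untreated wild-type libraries. JCHAIN had 79.2 CPM per kb in treated and 110 in untreated knock-in library 2, against 113 and 110 CPM per kb in untreated wild-type libraries. IGHA1 had 44.7 CPM per kb in treated knock-in library 2 and 43.6 CPM per kb in untreated knock-in library 2, against 46.3 and 68.5 CPM per kb in untreated wild-type libraries. Kallisto can divide reads of immunoglobulin genes among close relatives, so these levels are uncertain. IGHA2, the near-identical alpha 2 constant region, had 286, 264, 301 and 239 counts in the 4 libraries and 0 in the others.

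The antibody counts were mostly of 1 light chain class and 1 heavy chain class. Kappa had 1364 and lambda (IGLC1, IGLC2, IGLC3 and IGLC7) 5 constant region counts in treated knock-in library 2. The kappa share was 99.6% there (exact 95% interval 99.1 to 99.9%) and between 99.6 and 99.9% in the other 3. IGLL5, whose span includes IGLC1, was not counted as lambda. It had 33 counts in treated and 39 in untreated knock-in library 2, against 32 and 44 in untreated wild-type libraries. Counting it as lambda would lower the kappa share. The alpha genes IGHA1 and IGHA2 held 99.7% of heavy chain constant counts in treated knock-in library 2 (99.3 to 99.9%), 99.6% in untreated knock-in library 2, and 99.4 and 98.8% in untreated wild-type libraries. IGHM, the mu constant region, had at most 2 counts in any library, and IGHD, IGHG3, IGLC2, IGLC3 and IGLC7 had 0 in all 8. Of 15 immunoglobulin constant genes 4 (IGHA1, IGHA2, IGKC and IGLL5) had at least 10 counts in each high library and at most 3 in each other one. In the whole table this held for 51 of 40295 gene IDs. IGHA1 and IGKC are members, chosen for separating these libraries, so nothing is read from the count.

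Kappa and heavy chain variable segment counts were each led by 1 segment, with smaller shares than those of the classes. Of 103 kappa V segment IDs in the table, IGKV3D-20 took 93.8% of V counts in treated knock-in library 2 (907 of 967) and 96.6% in untreated knock-in library 2 (1246 of 1290), against 96.4 and 97.3% in untreated wild-type libraries. Its near-identical relative IGKV3-20 can share those reads. Of 150 heavy chain V segment IDs, 1 exceeded 3 counts in any library. This was IGHV3-53, with 22 of 25 V counts in treated knock-in library 2, 22 of 23 in untreated knock-in library 2, and 31 of 34 and 43 of 46 in untreated wild-type libraries. These heavy chain V counts were few, beside 1755 alpha constant counts in treated knock-in library 2, where the IGHV3-53 interval was 68.8 to 97.5%. IDs without a name were not part of the V search. Among 76 lambda V segment IDs, the top one, IGLV5-52, did not follow the pattern, with 18 and 21 counts in treated and 7 and 15 in untreated knock-in libraries, against 16 and 6 in treated and 7 and 12 in untreated wild-type libraries. The same kappa and heavy chain segments thus led in all 4 high libraries.

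MZB1 (chromosome 5, 139387480 to 139390081) had 0.11 and 6.18 CPM in treated and 0.111 and 6.97 CPM in untreated knock-in libraries, against 0.191 and 0.0408 CPM in treated and 7.86 and 9.36 CPM in untreated wild-type libraries. The highest of the low libraries held 5 counts of it and the lowest of the high ones 155. Among 20 genes of antibody secretion and the endoplasmic reticulum, many of which HCT116 uses for its own secretion, 1 shared this pattern. This was DERL3, a factor of protein export from the endoplasmic reticulum, with 1.4 CPM in treated and 1.8 CPM in untreated knock-in library 2, against 1.47 and 1.6 CPM in untreated wild-type libraries and 0 counts elsewhere. The summed level of the list did not separate the libraries, at 3144 to 4667 CPM in the 4 against 2950 to 4340 CPM in the others. XBP1, the secretory transcription factor, counted 2661 and 2337 in treated and 2982 and 4523 in untreated knock-in libraries, against 1478 and 1389 in treated and 1657 and 1900 in untreated wild-type libraries.

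IRF4 (chromosome 6, 391739 to 411447) had 0.513 and 14.9 CPM in treated and 0.167 and 18 CPM in untreated knock-in libraries, against 0.191 and 0 CPM in treated and 15.4 and 20.9 CPM in untreated wild-type libraries. Its 14 counts in treated knock-in library 1 were the most in any low library and lay above the 3 counts taken as the floor. POU2AF1 (chromosome 11, 111352252 to 111455630) had 1.24 and 9.73 CPM in treated and 1 and 11.3 CPM in untreated knock-in libraries, against 1.22 and 0.898 CPM in treated and 7.31 and 12.4 CPM in untreated wild-type libraries. It was the only member other than SDC1 with more than 14 counts in a low library (18 to 34 counts). Annotated genes overlap it on both strands, and whether they add to its count was not tested.

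Of 15 octamer and IRF4 partner genes, 0 met the pattern at 10 and 3 counts, since IRF4 and POU2AF1 themselves exceeded 3 counts elsewhere. PRDM1, the repressor that drives B cells into the plasma cell state, counted 23 and 69 in treated and 3 and 86 in untreated knock-in libraries, against 38 and 43 in treated and 76 and 76 in untreated wild-type libraries. All 4 high libraries exceeded the others for PRDM1 too, by less than for the members. IKZF1, the lymphoid factor Ikaros, counted 3 and 35 in treated and 1 and 20 in untreated knock-in libraries, against 5 and 0 in treated and 17 and 22 in untreated wild-type libraries. SPI1 and IRF8, which are high in earlier B cells and in myeloid cells, had at most 1 count in any library. POU2F1, a ubiquitous octamer factor, did not separate these libraries, with 100 and 100 CPM in treated and 69.2 and 54.4 CPM in untreated knock-in libraries, against 120 and 115 CPM in treated and 73.4 and 68.9 CPM in untreated wild-type libraries.

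TNFRSF17 (chromosome 16, 11965107 to 11968068), the receptor for the survival factors BAFF and APRIL, was the least abundant member. It counted 0 and 42 in treated and 0 and 62 in untreated knock-in libraries, against 0 and 0 in treated and 54 and 59 in untreated wild-type libraries. SLAMF7 (chromosome 1, 160739057 to 160754821), a self-binding receptor of plasma and NK cells, counted 2 and 95 in treated and 4 and 117 in untreated knock-in libraries, against 5 and 1 in treated and 117 and 138 in untreated wild-type libraries. CD48 (chromosome 1, 160678746 to 160711851), a glycolipid-anchored member of the same family, counted 0 and 109 in treated and 0 and 154 in untreated knock-in libraries, against 1 and 0 in treated and 139 and 139 in untreated wild-type libraries. TNFRSF17 and CD48 each overlap a gene on the opposite strand (NPIPB2 and AL121985.1), and whether counting used strand is not given in the sources used here.

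SDC1 (chromosome 2, 20200797 to 20225433) was the member with the highest level in the low libraries. It had 79.5 and 306 CPM in treated and 66.4 and 272 CPM in untreated knock-in libraries, against 63.5 and 61.2 CPM in treated and 294 and 397 CPM in untreated wild-type libraries. The low libraries thus still held 61.2 to 79.5 CPM, and library 2 exceeded library 1 by a ratio of 3.85 (counting interval 3.67 to 4.04) in treated and 4.1 (3.85 to 4.36) in untreated knock-in cells. SDC1 was the largest member by counts in all 8 libraries. How its high values divide between cell types was not tested.

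Of the 11 genes of the SLAM family list, CD48, itself a member, met the pattern at 10 and 3 counts. CD244, SLAMF8 and SLAMF9 had 0 counts in all libraries. LY9 counted 16 and 55 in treated and 12 and 41 in untreated knock-in libraries, against 13 and 11 in treated and 38 and 42 in untreated wild-type libraries. Among 15 survival and adhesion receptors, ITGA4, the alpha 4 integrin of lymphocyte homing, met the pattern with 4.82 and 4.51 CPM in treated and untreated knock-in library 2, against 4.32 and 6.36 CPM in untreated wild-type libraries and 0 counts in the other 4. CD28, a costimulatory receptor also found on plasma cells, counted 3 and 49 in treated and 0 and 83 in untreated knock-in libraries, against 3 and 0 in treated and 59 and 83 in untreated wild-type libraries. CXCR4, a homing receptor, counted 4 and 49 in treated and 21 and 46 in untreated knock-in libraries, against 0 and 3 in treated and 36 and 51 in untreated wild-type libraries.

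The make-up of the signal, on which the choice of genes set no condition, was compared among the 4 high libraries. It comes from the same counts as the choice, and a gene absent from any of the 4 could not be a member. A similar make-up is thus partly favoured by the choice. The intervals take rounded estimated counts as independent reads. Among the 9 members without SDC1, JCHAIN took 42.6% of counts in treated knock-in library 2 (exact 95% interval 41.4 to 43.8%) and 46.2% in untreated knock-in library 2 (45.1 to 47.3%), against 47.2% (46.1 to 48.3%) and 40.1% (39 to 41.2%) in untreated wild-type libraries 1 and 2. IGHA1 took 21.9%, 16.7%, 17.6% and 22.9% in the same order. For JCHAIN, IGHA1, IGKC, IRF4 and POU2AF1 the counting intervals did not all overlap. For JCHAIN the pair furthest apart was the 2 untreated wild-type libraries. IGKC took 20.3% (19.4 to 21.3%) in treated and 22.6% (21.7 to 23.5%) in untreated knock-in library 2. IRF4 took 5.56% (5.03 to 6.14%) in treated knock-in library 2 and 4.47% (4.02 to 4.97%) in untreated wild-type library 1. MZB1 lay between 2.04 and 2.38% and CD48 between 1.63 and 1.85%. The highest share exceeded the lowest by a ratio of 1.11 to 1.37 for 8 of the 9 genes. POU2AF1, with 3.64% (3.2 to 4.11%) in treated knock-in library 2 and 2.12% (1.8 to 2.47%) in untreated wild-type library 1, had a ratio of 1.72. With SDC1 included, POU2AF1 again had the largest ratio, 1.61 (counting interval 1.32 to 1.96). There was 1 treated library among the 4, so a shift in make-up with IFN-γ could not be tested.

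**Figure D2:**
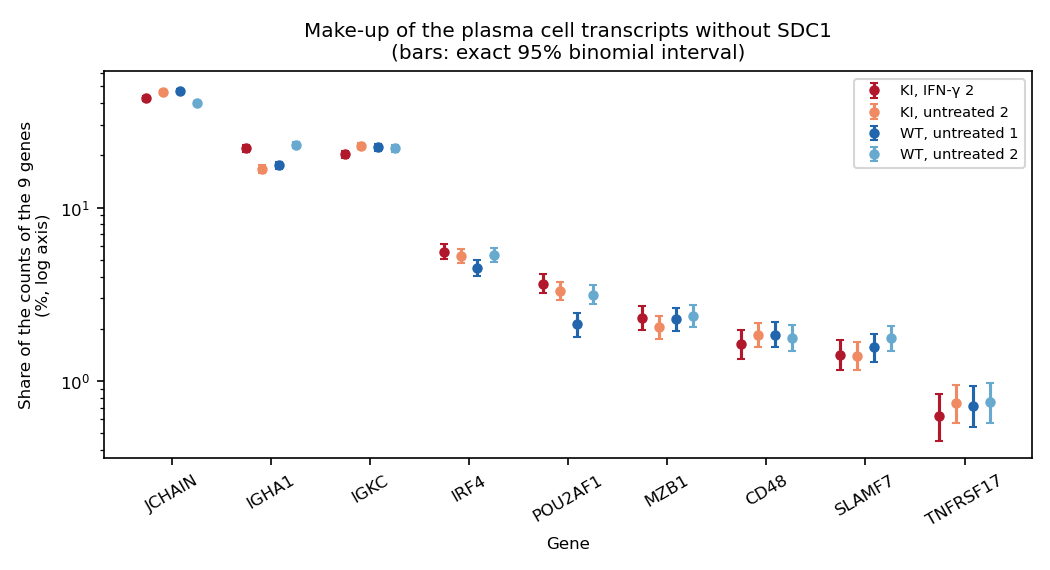
Share of each gene in the summed counts of the 9 members other than SDC1 (log axis, %), in treated knock-in library 2, untreated knock-in library 2 and untreated wild-type libraries 1 and 2; bars are exact 95% binomial intervals. The order of the genes is nearly the same in every library, with JCHAIN at 40.1 to 47.2% and TNFRSF17 below 1%.

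Markers of other cell types were read in the same libraries. General leukocyte markers followed the members, with summed levels of 101 to 111 CPM in the 4 high libraries and 33.4 to 43.1 CPM in the other 4. Of 16 such genes, 12 were higher in every high library than in any other, as were 1.53% of all tested genes, and 4 met the pattern at 10 and 3 counts (ARHGAP30, ITGA4, CD53 and CD37). CD74 alone stood at 24.6 to 34.2 CPM in the 4 and 0.111 to 4.98 CPM in the others. PTPRC (CD45), the defining surface protein of most leukocytes, was low throughout, with 9 and 26 counts in treated and 12 and 32 in untreated knock-in libraries, against 10 and 11 in treated and 19 and 30 in untreated wild-type libraries. It was still among the 12, at 0.873 to 1.5 CPM in the 4 and 0.33 to 0.668 CPM in the others. CD52 had at most 2 counts.

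Markers of earlier B cells overlapped between the libraries. Their summed level was 25.1 to 46.3 CPM in the 4 libraries and 23.4 to 51.4 CPM in the others, and 0 of 15 met the pattern. The sum was mostly CD40 (10.9 to 34.1 CPM over all 8) and BANK1 (5.51 to 13.9 CPM), so it could hide a signal in the others. CD79B, a B cell receptor chain, was the 1 gene of the list higher in every high library than in any other, with 0.915 and 1.2 CPM in treated and 0.891 and 1.89 CPM in untreated knock-in libraries, against 0.191 and 0 CPM in treated and 0.965 and 1.55 CPM in untreated wild-type libraries. MS4A1 (CD20), TCL1A and CXCR5 had 0 counts in all 8 libraries. Of 12 plasma cell genes outside the 10, 5 were higher in every high library than in any other (PRDM1, CD38, TNFRSF13B, DERL3 and PIM2), as were 1.53% of all tested genes. DERL3 alone met the pattern, and TNFRSF13B had only 3 to 8 counts in the high libraries against 0 or 1 elsewhere. The summed level of these 12 overlapped, at 219 to 330 CPM in the 4 libraries and 168 to 290 CPM in the others. CD27, a receptor of memory B cells and many plasma cells, had 0 counts in all libraries. CD79A, a B cell receptor chain, had at most 6 counts.

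Lists for T and NK cells (16.1 to 49.4 against 10.9 to 45.2 CPM), myeloid cells (1.29 to 2.83 against 1.39 to 3.59 CPM), erythroid cells and platelets (1.24 to 3.91 against 1.39 to 4.65 CPM) and fibroblasts and endothelium (4.66 to 9.85 against 7.22 to 9.08 CPM) overlapped between the 4 high libraries and the others. The T and NK sum was mostly PRF1 and KLRD1. PRF1 stood at 26.3 to 36.3 CPM in knock-in and 1.63 to 2.71 CPM in wild-type libraries, and KLRD1 at 6.16 to 11.3 CPM over all 8. That sum could therefore hide a signal in the other genes of the list. CD3D and TRBC1 had 0 counts in all libraries, as did S100A9, MPO, ELANE and TYROBP. Of the 13 T and NK genes, 2 (CD3E and CD4) were higher in every high library than in any other, as were 1.53% of all tested genes. CD3E, a T cell receptor chain, had 8 counts in treated and 4 in untreated knock-in library 2, against 3 and 4 in untreated wild-type libraries and 0 in the other 4. CD4 was further apart, with 0 and 98 counts in treated and 0 and 138 in untreated knock-in libraries, against 8 and 0 in treated and 128 and 148 in untreated wild-type libraries. Epithelial markers summed to 2342 to 5180 CPM in the 4 libraries and 3334 to 5147 CPM in the others. Most of this sum was KRT8, at 1440 to 3610 CPM over all 8. Not every marker of the list was high, since CDX1 had 0 counts in all libraries, VIL1 at most 4 and CEACAM5 at most 7. EPCAM, an epithelial adhesion protein, counted 3135 and 2885 in treated and 2580 and 4614 in untreated knock-in libraries, against 4958 and 4731 in treated and 4714 and 4162 in untreated wild-type libraries.

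**Figure D3:**
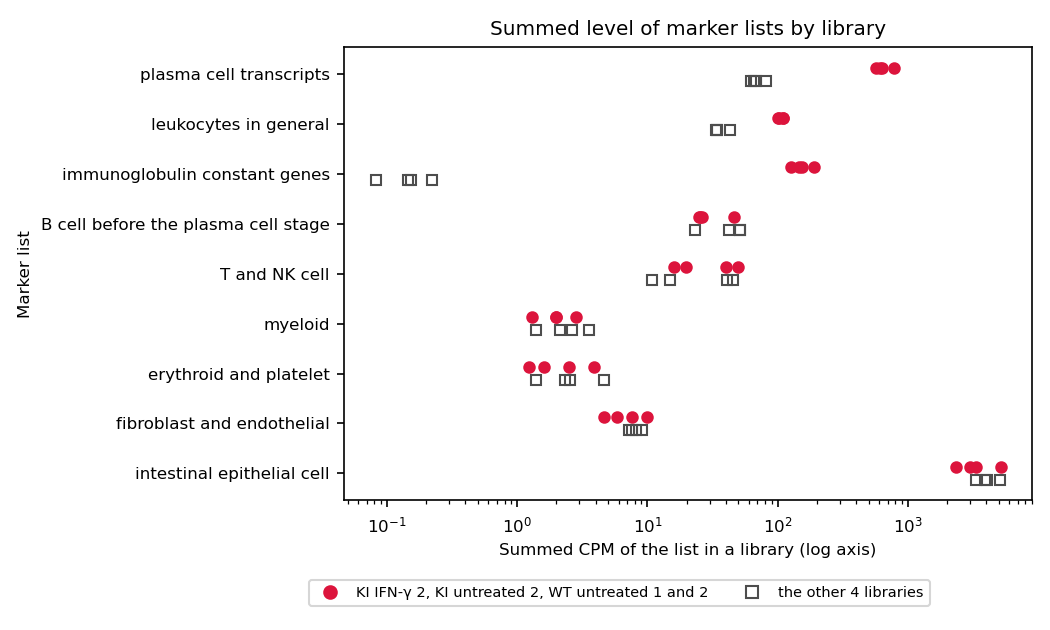
Summed CPM (log axis) of 9 marker lists in each library, with filled circles for treated knock-in library 2, untreated knock-in library 2 and the untreated wild-type libraries, and open squares for the other 4. The plasma cell transcripts were chosen for separating the libraries, and the immunoglobulin constant list includes IGKC and IGHA1 from among them. That list (126 to 191 against 0.0816 to 0.223 CPM) and the leukocyte list also separate the libraries, and the other lists overlap.

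Among genes altered by recurrent translocations in plasma cell tumours, CCND2, a cyclin of the G1 phase, followed the members. It had 0.33 and 6.78 CPM in treated and 0.0557 and 5.86 CPM in untreated knock-in libraries, against 0.191 and 0 CPM in treated and 5.97 and 5.51 CPM in untreated wild-type libraries. MAF had at most 1 count. CCND1, which HCT116 makes at a high level, stood at 657 and 635 CPM in treated and 327 and 232 CPM in untreated knock-in libraries, against 896 and 797 CPM in treated and 647 and 436 CPM in untreated wild-type libraries. FGFR3 and NSD2 did not separate the libraries either.

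All 10 members had higher levels in each of the 4 libraries than in any of the other 4, which was the ground for choosing them. The same held for 252 of 16519 tested genes (1.53%), and for 54 (0.327%) by at least 2-fold on the log2(CPM + 1) scale, all 10 members included. In the opposite direction, 0 tested genes were at least 2-fold lower in all 4 than in every other library. In the whole table, 51 gene IDs had at least 10 counts in each of the 4 and at most 3 in each other library. They included 4 members (IGKC, IGHA1, TNFRSF17 and CD48) and 10 IDs without a name in GENCODE 29, of which 4 had counts equal to those of a named ID (tolerance 1e-06). These 51 IDs took 0.033% of the counts of treated knock-in library 2 and 0.0293% of those of untreated knock-in library 2, against 0.0338 and 0.0393% in untreated wild-type libraries. In the other 4 libraries they took 3.2e-05 to 8.38e-05%.

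**Figure D4:**
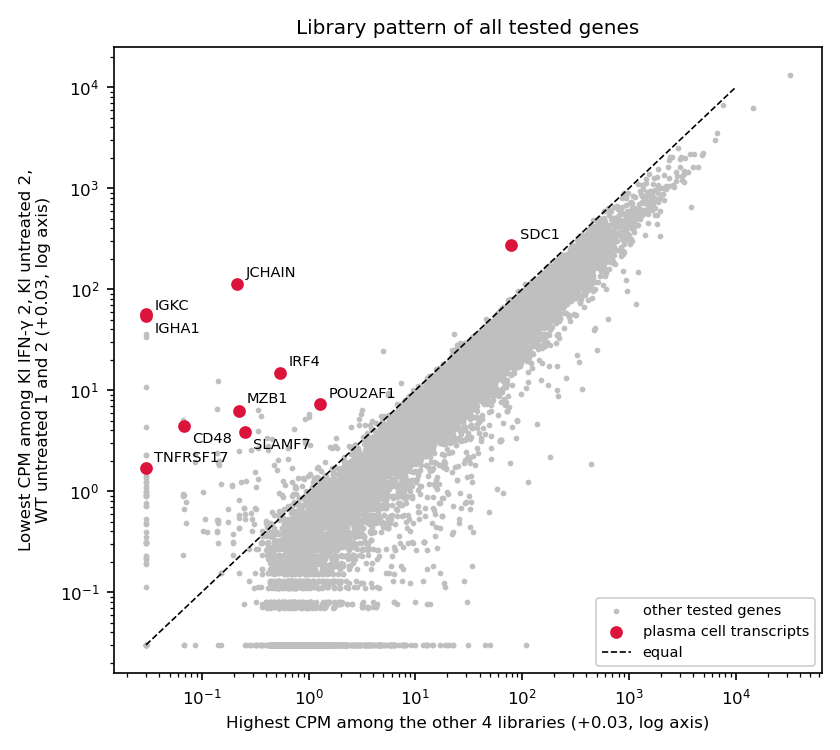
Each of the 16519 tested genes by its highest CPM among the other 4 libraries (x, log axis, 0.03 added) and its lowest CPM among treated knock-in library 2, untreated knock-in library 2 and the untreated wild-type libraries (y, log axis, 0.03 added); the dashed line marks equality. The 10 plasma cell transcripts lie above the line, with SDC1 furthest to the right, at 79.5 CPM in the highest of the other 4 libraries.

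The genes most like the members were ranked by the gap between the lowest log2(CPM + 1) of the 4 libraries and the highest of the other 4. JCHAIN had the largest gap of the members (6.6) and TNFRSF17 the smallest (1.42). Among named genes, the leading non-members were IGKV3D-20 (gap 5.22) and IGHA2 (3.56), followed by ARHGAP30 (2.55), ITGA4 (2.41) and CCND2 (2.29). IDs without a name were not ranked, and 3 of them had gaps of 5.11, 3.6 and 2.75. CD74, the MHC class II invariant chain, came next (2.1), with 4.98 and 31.7 CPM in treated and 0.111 and 24.6 CPM in untreated knock-in libraries, against 1.6 and 2.37 CPM in treated and 26 and 34.2 CPM in untreated wild-type libraries. The rest of the first 20, with gaps from 1.91 to 1.47, were CD4, SERPINF1, RCSD1, MGAT3, TXNIP, IL2RG, MLC1, KLHL6, SELPLG, CELF2, HCLS1, SEMA4A, WIPF1 and SRGN. Several are known from blood cells, such as the cytokine receptor chain IL2RG, the selectin ligand SELPLG and the granule proteoglycan SRGN. TXNIP, a thioredoxin-binding protein, differed most among the high libraries of these 20, with 2.23 CPM in treated and 7.63 CPM in untreated knock-in library 2, against 8.5 and 7.76 CPM in untreated wild-type libraries and 0 counts in the other 4.

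In the study's own comparisons these transcripts entered unevenly, because the 2 untreated wild-type libraries were both high and the 2 treated wild-type libraries both low. Treated against untreated wild-type cells, all 10 members were called lower (edgeR's quasi-likelihood test, Benjamini-Hochberg adjusted p under 0.05), beside 37.9% of all tested genes called in either direction and 20.8% called lower. The choice of genes used this contrast, and nothing is read from the count. The adjusted p of the members lay between 0.0191 (SDC1) and 0.0468 (TNFRSF17) in this test, near the cut of 0.05. Fewer members were called when any 1 wild-type library was left out. Each such fit left 1 library in a group and changed the calls over all genes too. What the calls rested on was therefore not tested. Treated against untreated knock-in cells, edgeR called 0 of 10 members (0 at an unadjusted p under 0.05, and 0 by DESeq2), beside 52.1% of all genes. Some members were called by edgeR without treated knock-in library 2, a fit that left 1 library in the treated group.

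Between knock-in and wild-type cells, edgeR called 0 of 10 members in untreated cells (0 at an unadjusted p under 0.05, 0 by DESeq2), beside 8.43% of all genes. In treated cells edgeR called 0 of 10 (9 at an unadjusted p under 0.05), beside 2.91% of all genes (2562 genes at an unadjusted p under 0.05). DESeq2 called 3 members there, beside 881 of all genes. For the difference between the responses of the lines edgeR called 0 of 10 (8 at an unadjusted p under 0.05, and 0 by DESeq2), beside 0% of all genes. Of all genes 1119 had an unadjusted p under 0.05 in edgeR and 4 were called by DESeq2. All 10 members passed the filter on low counts, and all but SDC1 and POU2AF1 did so through the libraries where they were high. Among leukocyte markers, 5 of 14 tested were called lower and 0 higher in treated against untreated wild-type cells, where the median log2 fold change was −3.36, against 0.08 for all tested genes. Of all tested genes 20.8% were called lower there, and the libraries that chose the members set this contrast, so nothing is read from the list's count.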

How the data were processed

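The data are 8 rRNA-depleted RNA-seq libraries, 2 in each of 4 groups. The submitters' processing notes name Trimmomatic, kallisto and GRCh38, and tool versions and transcript annotation were not given in the sources used here. Estimated counts per gene were deposited by the authors for 40295 Ensembl IDs and 63 ERCC spike-ins. Names, positions and the longest coding transcript length came from GENCODE 29 (35583 IDs named), and promoters from RefSeq.

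Estimated counts were rounded and the spike-ins left out. edgeR 4.0.16 in R 4.3.3 (filterByExpr, minimum count 10, 16519 genes, TMM factors 0.86 to 1.134, quasi-likelihood test, group the only factor, all 8 libraries) gave calls at a Benjamini-Hochberg adjusted p under 0.05. The fit was tested on simulated data. DESeq2 1.42.0, other scalings and filters, the replicate block and each library left out were alternatives. Shares have exact binomial 95% intervals and counts exact Poisson ones. P-values set a group difference against the spread between libraries within groups, which was estimated over the 4 groups together. All 10 members, the 20 genes with the largest gap and, per marker list, the 4 genes with the largest gap (or the 2 with the highest CPM where none had the pattern) were named by rule. The text gives some of these, and other list genes picked after their values were seen. Motifs were searched by exact letters on both strands. The members and lists were chosen with earlier results of these data known.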

Additional observations from a re-analysis of the deposited data

How the results depend on the processing

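Fewer members were called in treated against untreated wild-type cells when any 1 wild-type library was left out. In the knock-in response, members were called only without treated knock-in library 2, among the fits that left out 1 library. Each of these fits left 1 library in a group, and calls over all genes moved as well. Without a filter on low counts, 2 members were called in the knock-in response, beside 8801 of all genes. Between untreated lines 6 were called (2959 of all genes) and between treated lines 10 (1227 of all genes). For the difference between responses 10 were called (267 of all genes), and the cause was not tested. DESeq2 called 3 members between the treated lines, beside 881 of all genes. Without both knock-in libraries numbered 2, an alternative chosen after seeing the data, 9 were called between the untreated lines (250 of all genes) and 2 for the difference between responses (5 of all genes). Those libraries were dropped by the values that chose the members, which fixes these calls, and each knock-in group then had 1 library, assumed to vary like the wild-type groups. The summed level was 73.3 and 68.4 CPM in treated wild-type libraries without TMM. That setting also turned the order of the knock-in libraries numbered 2, to 648 CPM treated and 535 CPM untreated, against 573 and 614 CPM with TMM. Under spike-in scaling it was 61.5 and 48.1 in treated and 1076 and 1029 CPM in untreated wild-type libraries. It was 502 and 614 CPM in untreated wild-type libraries without IGKC and IGHA1. Without SDC1, also chosen after seeing the data, it was 1.83 and 0.979 in treated and 345 and 393 CPM in untreated wild-type libraries. Gene IDs with the pattern numbered 87 when up to 10 counts were allowed in the other libraries and 13 when 50 were required in the 4, by construction of those limits. Of all other alternatives computed, 82 values kept within the limits set for them. For summed levels the limit was the SD of the group, which was 348 CPM in treated and 386 CPM in untreated knock-in cells. Knock-in levels could hardly leave limits that wide, so little is read from their staying within. Treated knock-in library 1 stayed within its limit while going from 81.6 to 2.12 CPM without SDC1. With the replicate number as a block the calls stayed at 10 of 10 for the wild-type response and 0 elsewhere. Same-numbered libraries shared deviations in the knock-in line (r = 0.27 across genes) but not otherwise (0 to 0.07), so the numbers were not taken as pairs. Genes under about 10 counts in a high library could not be placed at this depth.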

Other observations

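Some of the 51 gene IDs with the members' library pattern belong to groups that were not among the marker lists, and were picked after their values were seen. Cancer-testis antigens, which are normally made in the germ line and in tumours, were among them. CTAG2 had 37 counts in treated and 51 in untreated knock-in library 2, against 24 and 27 in untreated wild-type libraries, and 0 in the other 4 libraries. MAGEA1 had 40 and 22 counts in treated and untreated knock-in library 2, against 19 and 31 in untreated wild-type libraries and 0 elsewhere. GAGE12F, whose family members are near-identical and can share reads, had 62 and 29 counts in treated and untreated knock-in library 2, against 40 and 28 in untreated wild-type libraries and 0 elsewhere.

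GPRC5D, an orphan receptor known from plasma cells, had 22 and 38 counts in treated and untreated knock-in library 2, against 43 and 37 in untreated wild-type libraries. It had at most 1 count in the other 4. CCL3, a chemokine, had 24 and 81 counts in treated and untreated knock-in library 2, against 63 and 71 in untreated wild-type libraries, and 0 elsewhere. HLA-DQB1, an MHC class II chain, had 33 and 17 counts in treated and untreated knock-in library 2, against 15 and 19 in untreated wild-type libraries and 0 elsewhere. Of the 3 genes, GPRC5D and CCL3 were lowest and HLA-DQB1 highest in the treated library, which had no replicate with the signal.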
